A study of Mus musculus with 121 samples.

Results

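The genes of cholesterol and fatty acid synthesis were followed in Per2::Luc mouse fibroblasts after cycles of rich and poor medium. The set held 34 genes, chosen by name from these 2 pathways and their SREBP regulators and kept where at least 3 libraries had a level of 1 CPM (counts of a gene per 1000000 counts of a library) or more, a filter that all 34 passed. They were 34 of the 13292 genes tested. By role, 7 genes belong to the mevalonate pathway, 11 convert squalene to cholesterol, 6 regulate SREBP or carry sterols, and 10 make or modify fatty acids.

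Cholesterol is built from acetyl-CoA through mevalonate, farnesyl diphosphate and squalene, and fatty acids are built from the same acetyl-CoA by carboxylation and chain growth. SREBP-2 and SREBP-1, encoded by Srebf2 and Srebf1, are transcription factors held in the endoplasmic reticulum by Scap and the Insig proteins while sterols are plentiful, and released to switch on most of these genes when sterols run low. Insulin is a known activator of SREBP-1 and of fatty acid synthesis in liver and fat.

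The cells were an immortalized ear fibroblast line from a knock-in mouse that carries a PER2::LUCsv luciferase reporter, so all groups share this reporter and all come from 1 line at 1 passage (P25). HL cells received medium high in glucose with insulin for 12 h and then medium low in glucose without insulin for 12 h, over 3 days. LH cells received the same media in the opposite order, and HH cells received the rich medium at every change. After a further 12 h without medium change, RNA was collected 6 times, every 4 h, and sequenced by 3′DGE, a method that reads transcripts at their 3′ ends only, so long genes do not collect more counts than short ones. The libraries numbered 21 in HL, 22 in LH and 19 in HH, with 2 to 4 for each treatment and collection, and the paper describes its replicates in general as biological, while the labels do not tie single libraries to separate cultures, so p-values measure the spread between these libraries. Hours are counted from the collection number, and they conflict with the clock hour in the labels, which gives 12 h to both collection 2 and collection 5 and, in LH, 16 h to collections 3 and 6 and 20 h to collections 1 and 4. Peak hours and time courses hold only if the collection numbers are right, and no test by clock hour was run. In bulk RNA, fewer cells of a type and less RNA per cell cannot be told apart.

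Library totals ran from 104912 to 11619095 counts (median 5825881), and the second lowest was 2136819. All 11 fibroblast markers passed the filter, with a summed level of 18720 to 43436 CPM. Keratinocyte markers summed to at most 7.96 CPM, with Krt5 and Krt1 at 0 in every library, and muscle markers to at most 1.95 CPM, with Myod1 and Ckm at 0. Adipocyte markers summed to 2.75 to 99.7 CPM, immune markers to 5.30 to 324 CPM, endothelial markers to 22.8 to 270 CPM, nearly all of it Kdr (mean 172 CPM), and chondrocyte markers to 294 to 1129 CPM, nearly all of it Sox9. By title, the median sums in HL, LH and HH were 36441, 31320 and 35007 CPM for fibroblast and 162, 194 and 185 CPM for endothelial markers. They were 502, 516 and 516 CPM for chondrocyte, 6.40, 8.73 and 7.64 CPM for adipocyte and 11.2, 9.08 and 10.6 CPM for immune markers. The part of these marker levels in the results was not tested.

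Sample names were in conflict. The titles of the deposited samples and a read summary that lists library numbers gave different names to 40 of the 62 libraries, of which 31 got another treatment and 5 had a number that was not listed. The results below follow the titles. The edgeR and JTK_CYCLE tests were repeated on the 57 listed libraries by number, 19 per treatment, where 13198 genes passed the filter. The HH libraries are the same in both assignments, so the conflict concerns HL and LH. By number, LH collection 5 holds a single library.

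Of the 62 libraries, 4 stood apart, with a median absolute log2 deviation from the gene medians of 0.4 or more, where the median library had 0.163 and the next highest 0.379. They were LH collection 2 replicate 1 (0.620), HL collection 2 replicate 3 (0.499), HH collection 6 replicate 3 (0.474) and LH collection 2 replicate 2 (0.473). The last is the library of 104912 counts, and its immune marker sum of 324 CPM came from 34 counts. A count of 0 in it allows up to 3 counts, or 28.6 CPM, so its zeros for Dhcr7, Acss2, Fads2 and Idi1 say little, and intervals of this kind cover counting error only. LH collection 2 replicate 1 held the lowest value over all libraries for 13 of the 34 genes, HL collection 2 replicate 3 for 5 and LH collection 2 replicate 2 for 6. Several results that rest on these libraries are given with and without them. The counts of lower genes, the summed levels by treatment and the confidence intervals are given with all libraries only.

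The promoters of 5 genes are shown because they carry the motifs known for this pathway: Hmgcs1 and Msmo1 for the SREBP pattern in the mevalonate and the later steps, Srebf2 and Insig1 for the regulators, and Mvk for CCAAT boxes without that pattern. Capitals mark TCACNCCAC or TCANNCCA (strict and relaxed SREBP patterns), CACGTG (E-box, bound among others by the clock proteins) and CCAAT (NF-Y box, ATTGG when on the other strand). Each runs 5′ to 3′ along the gene, from 250 bases before to 50 after the RefSeq start, in GRCm38.p6. Hmgcs1 lies at chr13:119690101-119690400 (+), Msmo1 at chr8:64733529-64733828 (-), Srebf2 at chr15:82147019-82147318 (+), Insig1 at chr5:28071162-28071461 (+) and Mvk at chr5:114444019-114444318 (+).
Hmgcs1: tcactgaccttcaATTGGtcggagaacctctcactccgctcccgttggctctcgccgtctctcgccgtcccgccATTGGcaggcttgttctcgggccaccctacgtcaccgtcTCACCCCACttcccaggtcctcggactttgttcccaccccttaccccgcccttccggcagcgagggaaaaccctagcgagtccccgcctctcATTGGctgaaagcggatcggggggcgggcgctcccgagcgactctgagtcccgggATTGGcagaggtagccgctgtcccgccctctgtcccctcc
Msmo1: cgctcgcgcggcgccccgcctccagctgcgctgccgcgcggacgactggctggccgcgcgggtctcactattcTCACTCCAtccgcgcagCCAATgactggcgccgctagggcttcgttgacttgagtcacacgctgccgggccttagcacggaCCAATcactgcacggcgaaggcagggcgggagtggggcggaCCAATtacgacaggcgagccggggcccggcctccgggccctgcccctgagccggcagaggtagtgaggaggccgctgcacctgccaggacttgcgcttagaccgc
Srebf2: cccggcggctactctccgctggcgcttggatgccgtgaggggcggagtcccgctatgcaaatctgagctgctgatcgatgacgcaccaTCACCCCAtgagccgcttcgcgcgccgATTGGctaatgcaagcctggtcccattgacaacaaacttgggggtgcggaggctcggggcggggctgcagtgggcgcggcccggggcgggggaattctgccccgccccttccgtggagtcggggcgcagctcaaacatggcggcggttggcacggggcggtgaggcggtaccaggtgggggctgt
Insig1: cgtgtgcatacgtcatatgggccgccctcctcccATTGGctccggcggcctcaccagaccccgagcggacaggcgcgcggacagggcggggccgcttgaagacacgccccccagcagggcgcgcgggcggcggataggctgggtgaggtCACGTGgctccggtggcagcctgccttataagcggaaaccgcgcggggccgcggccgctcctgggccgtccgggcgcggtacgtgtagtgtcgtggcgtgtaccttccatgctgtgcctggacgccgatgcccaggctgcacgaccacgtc
Mvk: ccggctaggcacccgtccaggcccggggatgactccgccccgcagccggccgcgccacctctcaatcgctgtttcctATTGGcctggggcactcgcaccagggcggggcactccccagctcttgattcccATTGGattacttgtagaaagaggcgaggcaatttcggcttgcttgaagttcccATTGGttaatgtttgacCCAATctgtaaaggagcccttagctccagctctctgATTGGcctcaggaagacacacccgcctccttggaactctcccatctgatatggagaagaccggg

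Of the 34 genes, 27 had a RefSeq promoter window, and 7 had none in the table (Fdps, Fdft1, Sqle, Stard4, Scd1, Scd2 and Fads1). On either strand, the strict pattern TCACNCCAC occurred in the window of 1 gene, Hmgcs1, beginning 137 bases before the start, and in 1.24% of all 32851 windows. Every match of the strict pattern is also one of the relaxed pattern TCANNCCA, which occurred in 6 genes (Acly, Acss2, Hmgcs1, Msmo1, Srebf1 and Srebf2), or 16.7% of their 36 windows, and in 15.7% of all windows. It began 177 bases before the start in Msmo1 and 162 bases before it in Srebf2. CACGTG was found in Dhcr7, Hsd17b7, Insig1, Sc5d and Scap, or 16.7% of member windows and 7.15% of all windows, and in Insig1 it began 101 bases before the start. CCAAT was held by 22 of the 27 genes (63.9% of member windows, 37.4% of all) and GGGCGG, the GC box of Sp1, by 23 (75% of member windows, 35.7% of all). A match is a description of letters and not a bound site.

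The set was well expressed, with 14 genes at a mean of 100 CPM or more, 16 between 10 and 100 CPM and 4 below 10 CPM. Among genes of the mevalonate pathway the highest was Acat2, the cytosolic thiolase that joins acetyl-CoA units, at a mean of 237.01 CPM (117 to 305 CPM over libraries). Fdps, the farnesyl diphosphate synthase, followed at 201 CPM, Hmgcs1, the HMG-CoA synthase, at 197 CPM, and Mvd, the mevalonate diphosphate decarboxylase, at 191 CPM (56.6 to 342 CPM). Mvk (mevalonate kinase) had 93.3 CPM and Pmvk (phosphomevalonate kinase) 53.8 CPM. Idi1, the isopentenyl diphosphate isomerase, was the least expressed of the 34 at 1.97 CPM, with a median of 10 counts in a library. Neighbours in this order that differ by less than their spread over libraries, such as Fdps, Hmgcs1 and Mvd, cannot be ranked.

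Among the genes from squalene to cholesterol, Msmo1, the sterol C4-methyl oxidase, was highest at 357 CPM (250 to 533 CPM), followed by Cyp51, the lanosterol demethylase, at 295 CPM, Sc5d, the sterol desaturase, at 175 CPM, Sqle, the squalene epoxidase, at 154 CPM and Ebp, the sterol isomerase, at 128 CPM. Nsdhl had 66.0 CPM, Hsd17b7 44.1 CPM, Lss, the lanosterol synthase, 42.9 CPM, Fdft1, the squalene synthase, 38.8 CPM, Dhcr7, the last reductase of one branch, 27.0 CPM and Tm7sf2, a sterol reductase, 16.1 CPM. Among the regulators, Srebf2 had 168 CPM (102 to 215 CPM) and Srebf1 7.11 CPM (1.38 to 16.9 CPM). Scap, the SREBP escort, had 56.5 CPM, Stard4, a sterol carrier, 43.6 CPM, Insig1 35.3 CPM and Insig2 21.0 CPM. Among the fatty acid genes, Fasn, the fatty acid synthase, had 304 CPM (97.6 to 478 CPM), the desaturases Scd2 and Scd1 277.4 and 176.4 CPM, and Acly, which makes cytosolic acetyl-CoA from citrate, 152 CPM. Elovl6 had 87.3 CPM, Acaca (acetyl-CoA carboxylase) 64.5 CPM, Me1 59.3 CPM, Fads1 51.2 CPM, Acss2 8.78 CPM and Fads2 4.39 CPM.

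Over the 61 libraries of more than 1000000 counts, the coefficient of variation ran from 13.8% (Ebp) to 51.7% (Idi1), with a median of 20.8%. In 33 of the 34 genes it was more than 2 times the value that counting error alone would give. Wide ranges were found in little expressed genes and in well expressed ones. Mvk spanned 14.5 to 151 CPM, with its minimum in LH collection 2 replicate 1, and Tm7sf2 spanned 5.08 to 31.6 CPM with its minimum in the same library. Mvd, whose minimum lay in HH collection 6 replicate 2, a library that did not stand apart, spanned 56.6 to 342 CPM. Summed over all 34 genes, the lowest library had 2496 CPM (HL collection 2 replicate 3), the median 3924 CPM and the highest 4646 CPM (HL collection 3 replicate 1).

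**Figure D1:**
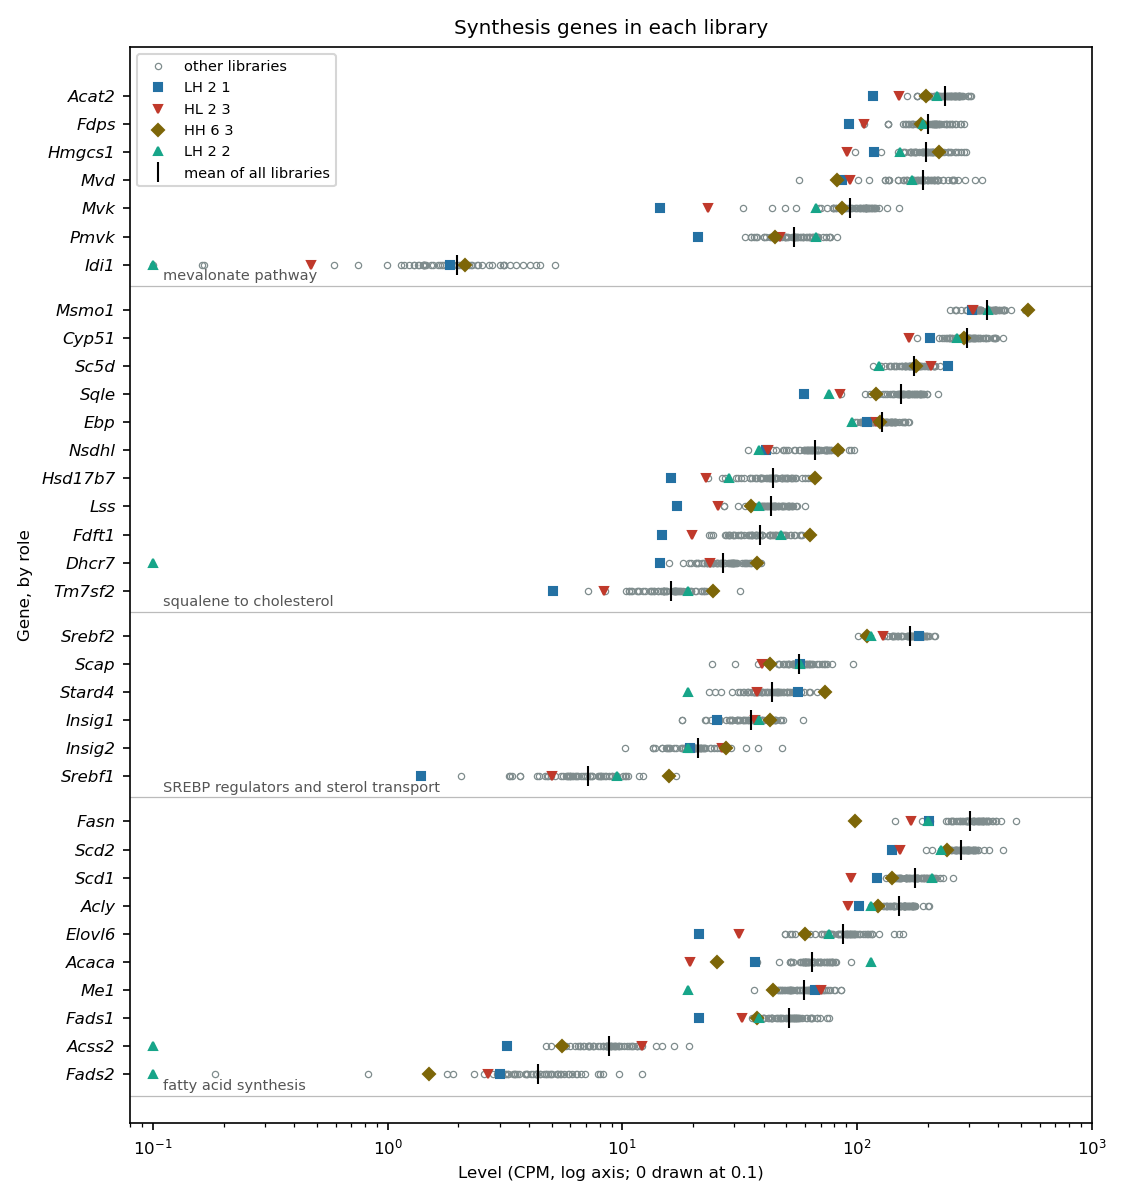
Level of each of the 34 genes in CPM (log axis, 0 drawn at 0.1), 1 point per library, grouped by role, with the mean as a bar and the 4 libraries that stood apart as filled symbols named by treatment, collection and replicate. Genes range from Idi1 (mean 1.97 CPM) to Msmo1 (mean 357 CPM), and LH collection 2 replicate 1 has the lowest value for 13 genes.

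The first comparison asked whether the order of rich and poor medium, or rich medium throughout, changed the mean level over the 6 collections. In edgeR's quasi-likelihood test with the study's unadjusted thresholds (treatment p under 0.01, comparison p under 0.05), 2 of the 34 genes, Pmvk and Ebp, were lower in LH than in HL, where 1.16% of all genes tested were called. Both were also lower in HH than in HL, where 1.2% of all genes were called, and these comparisons share their HL libraries. No gene of the set was called between LH and HH (0.91% of all genes). There, 3 had an unadjusted p under 0.05 (Fdft1, Nsdhl and Scd2), against 5.23% of all genes, and DESeq2 called none (0.873% of all genes). After Benjamini-Hochberg adjustment no gene of the 13292 passed 0.05 in any of the 3 comparisons, and the lowest adjusted edgeR p of the set was 0.542 for LH against HL (Fdps), 0.474 for HH against HL (Ebp) and 0.883 for LH against HH, a value shared by 9 genes of the set, among which Nsdhl had the smallest unadjusted p (0.0203).

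Pmvk, which phosphorylates mevalonate phosphate (chr3:89454541-89469013), had 37.0, 55.5 and 82.4 CPM as lowest, median and highest value in HL, 21.0, 52.1 and 73.6 CPM in LH, and 33.4, 52.9 and 71.8 CPM in HH. The 3 groups overlapped over most of their range. Its log2 difference was -0.23 (SE 0.09) for LH against HL and -0.26 (SE 0.09) for HH against HL, with an adjusted edgeR p of 0.700 and 0.503. Without LH collection 2 replicate 1, Pmvk was no longer called in either comparison, with differences of -0.19 for LH against HL and -0.26 for HH against HL. The same loss was seen without the 4 libraries that stood apart, at -0.20 and -0.25.

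Ebp, which moves the double bond of the sterol ring (chrX:8185329-8193512), had 112, 134 and 164 CPM in HL, 95.3, 126 and 159 CPM in LH, and 104, 122 and 166 CPM in HH, again with overlap over most of the range. Its log2 difference was -0.17 (SE 0.07) for LH against HL and -0.21 (SE 0.07) for HH against HL, with an adjusted edgeR p of 0.732 and 0.474. Ebp stayed called without LH collection 2 replicate 1 and without the 4 libraries that stood apart.

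Assigned by library number, neither gene was called. The LH to HL difference turned over, to 0.12 for Pmvk and 0.13 for Ebp on the log2 scale, and HH against HL became -0.10 for Pmvk and -0.06 for Ebp. By number, edgeR called 0 genes of the set between LH and HL (1.34% of all genes), 0 between HH and HL (0.568%) and 0 between LH and HH (1.63%). At an unadjusted p under 0.05 there were 2 for LH against HL (Dhcr7 and Me1, with 7.63% of all genes), 1 for HH against HL (Nsdhl, with 3.62%) and 8 for LH against HH (Pmvk, Mvd, Ebp, Sc5d, Srebf1, Srebf2, Insig1 and Fads2, with 10.2%). DESeq2 was run by title only, where it called Pmvk, Ebp and Fdps in LH against HL (1.26% of all genes by DESeq2) and in HH against HL (1.22%).

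Over all 34 genes, Pmvk and Ebp included, the differences were small. By title, 25 were lower in LH than in HL (49.7% of all genes), with a median log2 difference of -0.09 against 0.0013 for all genes. For HH against HL, 22 were lower (49.5% of all genes) with a median of -0.05, and for LH against HH 15 were lower (50.1% of all genes) with a median of 0.02. By number the lower genes were 17, 19 and 11, and the medians -0.0011, -0.05 and 0.05. The median standard error was 0.09, and all 34 genes had 95% confidence intervals within 1 log2 unit of no change in all 3 comparisons and both assignments, so a change of the mean level of 2-fold or more lay outside the interval of each. By title these bounds reached from -0.997 (Fads2, HH against HL) to 0.77 (Idi1, LH against HL).

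Fdps (chr3:89093588-89101959) and Fads2 came next. Fdps had 107.2, 217.5 and 277.9 CPM in HL, 92.1, 194.9 and 285.1 CPM in LH, and 136, 192 and 240 CPM in HH, and its log2 difference of LH from HL was -0.24 (SE 0.08) with a treatment p of 0.0103 that just missed the threshold. By number that difference of Fdps was 0.02 (SE 0.08), with a treatment p of 0.267. Its last bases are at least 95% identical to those of 5 other annotated genes (Gm3571, Gm43738, Gm48326, Gm7979 and Gm8163), so its 3′ counts could have been split and its values are uncertain. Fads2, a desaturase of polyunsaturated fatty acids, had 2.67, 4.72 and 12.1 CPM in HL, 0, 3.88 and 8.27 CPM in LH, and 0.183, 3.89 and 6.44 CPM in HH. Its log2 difference was -0.44 (SE 0.21) for LH against HL and -0.58 (SE 0.21) for HH against HL, with a treatment p of 0.0177. By number, the LH to HL difference of Fads2 turned to 0.22 (SE 0.20), and HH against HL was -0.28 (SE 0.20).

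By role, the summed levels of the 3 treatments overlapped. The summed level of the squalene to cholesterol genes had a median of 1390 CPM in HL, 1305 CPM in LH and 1312 CPM in HH. That of the mevalonate genes was 1063 CPM in HL, 983 CPM in LH and 981 CPM in HH, that of the regulators 336, 327 and 335 CPM, and that of the fatty acid genes 1239, 1176 and 1251 CPM. The SD over the libraries of a treatment was 160 to 166 CPM for the squalene to cholesterol sum, and the sums were not tested between treatments. None of the 6 regulators was called. Srebf1, which insulin is known to raise in liver, had 2.06, 5.98 and 12.2 CPM in HL, 1.38, 6.63 and 16.9 CPM in LH, and 3.29, 8.09 and 15.8 CPM in HH, a log2 difference of HH from HL of 0.26 (95% confidence interval -0.09 to 0.60). Fasn had 171, 335 and 478 CPM in HL, 189, 298 and 365 CPM in LH, and 97.6, 317 and 411 CPM in HH.

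**Figure D2:**
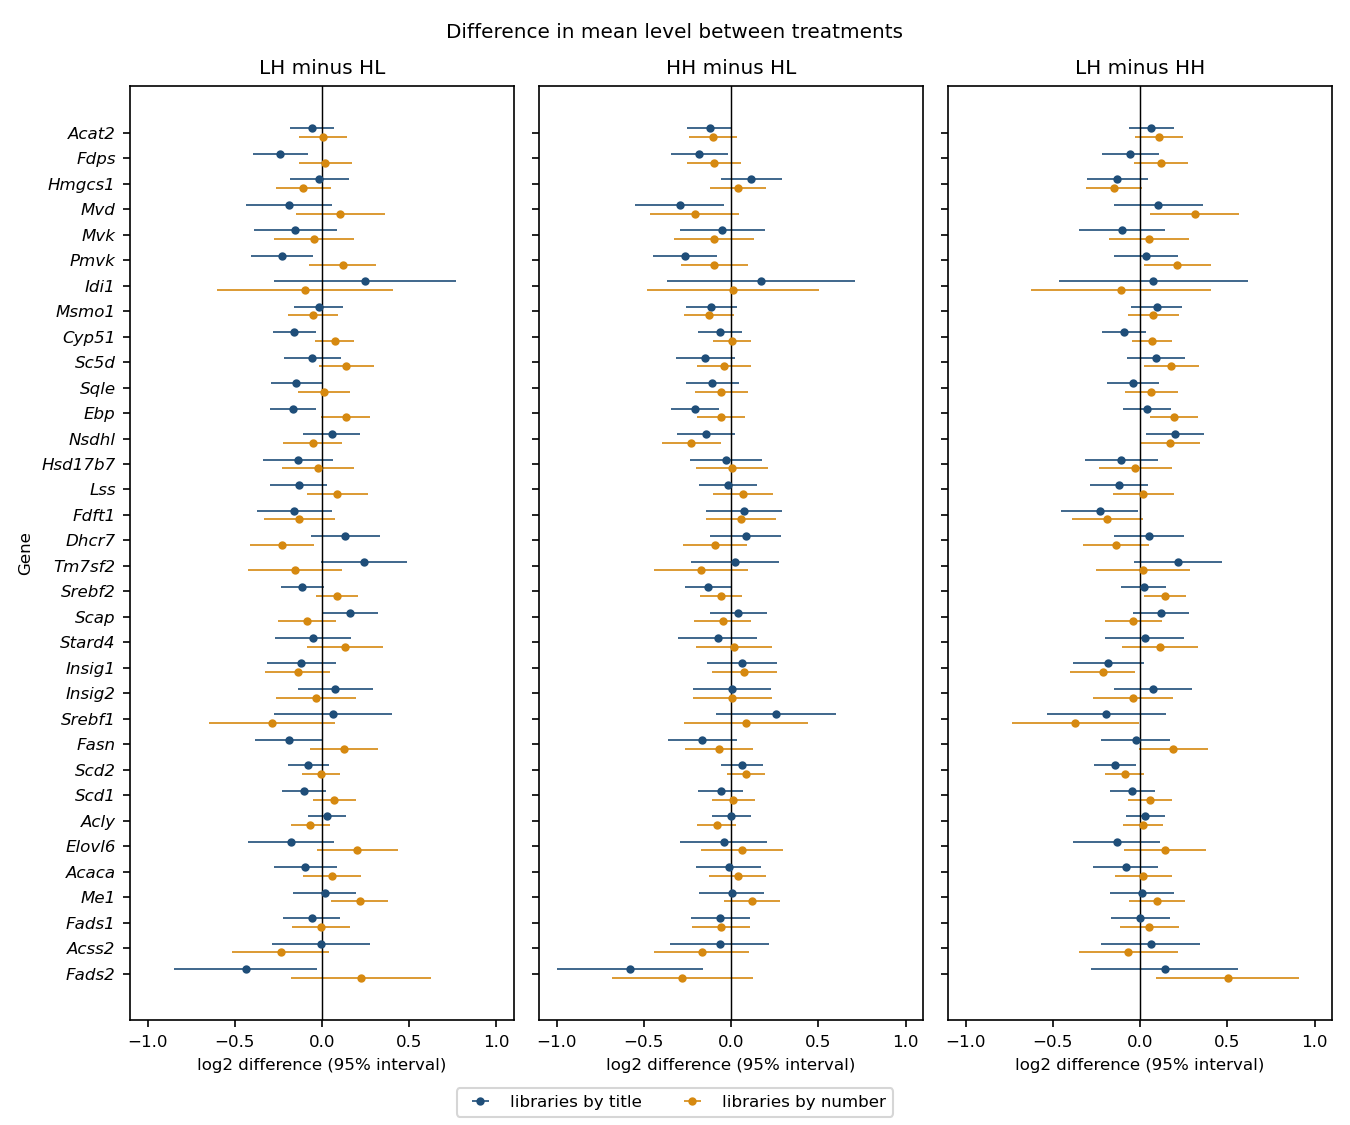
Log2 difference in mean level for each of the 34 genes with its 95% confidence interval from edgeR, for LH minus HL, HH minus HL and LH minus HH, by title (blue) and by library number (orange). All intervals lie within 1 log2 unit of 0, and Pmvk and Ebp change sign between the assignments for LH minus HL.

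The second comparison asked whether the genes changed over the 6 collections within a treatment. At an adjusted edgeR p under 0.05, no gene of the set changed in HL, where 0.301% of all genes did, and none at an unadjusted p under 0.05 either (8.98% of all genes). In LH 3 genes changed, Mvk (adjusted p 0.025), Fdps (0.0078) and Sqle (0.028), where 2.93% of all genes did. In HH none changed (0.293% of all genes), and 1, Fdft1, had an unadjusted p under 0.05 (8.61% of all genes). DESeq2 called 0 of the set in HL (0.939% of all genes by DESeq2), 4 in LH (the same 3 and Elovl6, with 5.8%) and 0 in HH (1.19%).

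In LH, low values of these 3 genes lay in the second and the sixth collection. Fdps had 160, 199 and 187 CPM in the first LH collection, 92.1, 191 and 108 CPM in the second, 222.8, 194.7, 253.5 and 246.8 CPM in the third, and 215.5, 218.0, 212.9 and 285.1 CPM in the 4th collection. The 5th held 212, 195, 188 and 240 CPM and the sixth 135, 136, 165 and 184 CPM. The 3rd, 4th and 5th collections lay above the sixth in every library, and the second held the 2 lowest LH values beside one near the LH median. Mvk had 14.5, 66.7 and 49.6 CPM in the second collection and 74.3 to 134 CPM in the other 19 LH libraries. Its second collection lay below all others, as for 2.12% of all genes, but the 66.7 CPM rest on 7 counts, so that library cannot be told from the lowest of the others. Sqle had 59.8, 76.3 and 147 CPM in the second collection, the 76.3 CPM from 8 counts, and 114 to 221 CPM in the others. In the sixth collection Mvk had 78.8, 74.3, 88.3 and 89.7 CPM and Sqle 118.8, 113.5, 119.8 and 141.9 CPM, and 3 of these 4 Sqle values lay below every library of the other collections but the second.

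Of the 3 libraries of LH collection 2, 2 were among those that stood apart. Without LH collection 2 replicate 1, none of the 3 genes passed (adjusted edgeR p of 0.063 for Fdps, 0.508 for Mvk and 0.264 for Sqle). Without all 4, replicate 4 alone is left in LH collection 2, so the edgeR test between collections without them is not given. In the same collection, adipocyte markers reached 99.7 CPM in replicate 4 and immune markers 324 CPM in replicate 2, and all 4 adipocyte markers tested (Fabp4, Lpl, Cfd and Retn) and 2 of 4 immune markers changed between LH collections, where 2.93% of all genes did. The part of these in the result was not tested. Over all 34 genes, the mean summed level in LH collection 2 was 3024 CPM ± 413 (SD, n = 3), and 3631 to 4082 CPM in the other LH collections. In LH collection 2, 23 of the 34 genes had their lowest LH mean, where 40.6% of all genes did. Without the libraries that stood apart the count was 16 (39.4% of all genes), with replicate 4 alone left in that collection. Replicate 4 had the second lowest total, 2136819 counts, and a deviation of 0.379.

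By library number, 0 genes of the set changed between LH collections at an adjusted edgeR p under 0.05 (1.05% of all genes), and 4 at an unadjusted p under 0.05 (Fdps, Fdft1, Scap and Fads2, with 14.3% of all genes). In HL there were 0 (0.394%) and unadjusted 2 (Pmvk and Tm7sf2, with 5.49%). In HH, whose libraries are the same but share a fit with the renamed ones, there were 0 (0.803%) and unadjusted 4 (Fdft1, Cyp51, Srebf2 and Fasn, with 10.5%).

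The interaction of treatment and collection tests whether these courses differed. No gene of the set passed in edgeR (0.128% of all genes) or in DESeq2 (1.63%), and 5 had an unadjusted p under 0.05 (Fdps, Fdft1, Insig1, Acss2 and Fasn, with 11.6% of all genes). By number 0 passed (0% of all genes), and 1, Fasn, at an unadjusted p under 0.05 (5.98%). The change of Fdps, Mvk and Sqle in LH is therefore not shown to differ from their course in HL or HH.

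JTK_CYCLE, a rank test of a daily cosine with an exact null distribution, called 2 genes of the set in HL at p under 0.01, where 0.82% of all genes were called. The exact p given here is corrected for the phases tried. Fads2 had an exact p of 0.00053 with its peak at 20 h after the first collection and an amplitude of 1.65 CPM. Its HL values were 9.71, 5.95 and 4.81 CPM in the first collection, 3.47, 4.30, 2.67 and 6.12 CPM in the second, 4.64, 3.19 and 2.99 CPM in the third, and 3.56, 3.65, 4.28 and 4.45 CPM in the fourth. They were 5.43, 4.72 and 6.90 CPM in the fifth and 6.69, 7.88, 5.33 and 12.1 CPM in the sixth, so the third and the fourth collection lay below the sixth in every library. Fads2 is near the low end of what these libraries resolve, with a median of 25 counts.

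Fads1, the partner desaturase that lies beside Fads2 on chromosome 19, had an exact p of 0.0074, with its peak at 14 h and an amplitude of 6.47 CPM. Its HL values ran from 32.5 CPM in the second collection, in the library that stood apart, to 67.7 CPM in the fourth, and the fourth collection lay above the second in every library. Without the 4 libraries that stood apart its exact p was 0.0195, and that of Fads2 was 0.00045. With 1 replicate number left out at a time, the exact p reached 0.105 for Fads1 and 0.0341 for Fads2. In LH, 1 gene was called, Fdps, where 1.53% of all genes were, with an exact p of 0.0029, its peak at 10 h and an amplitude of 39.5 CPM. It was called without LH collection 2 replicate 1 (exact p 0.000985) and without the 4 libraries (0.0022), where replicate 4 alone is left in LH collection 2. With 1 replicate number left out at a time, the exact p of Fdps reached 0.0306, above the threshold. In HH, JTK_CYCLE called 0 (1.99% of all genes) and 2 at an exact p under 0.05, Hmgcs1 (0.0256) and Fdft1 (0.0321), with 6.4% of all genes. The edgeR cosinor called 0 in HH by title, but Fdft1 by number, where the HH libraries are the same (p 0.0132 and 0.0077). The share of all genes called by the cosinor is not given here, so this call cannot be judged against it.

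After Benjamini-Hochberg adjustment over all genes, JTK_CYCLE called none of the set in any treatment. By library number, the calls were other genes or other treatments. In HL, 1 gene was called, Acaca, the rate-limiting enzyme of fatty acid synthesis (exact p 0.0034, peak at 22 h, amplitude 13.7 CPM), where 1.82% of all genes were. In LH there were 2, Fdft1 (exact p 0.0094) and Fads2 (0.0082), where 2.14% of all genes were, and Fdps was not called.

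**Figure D3:**
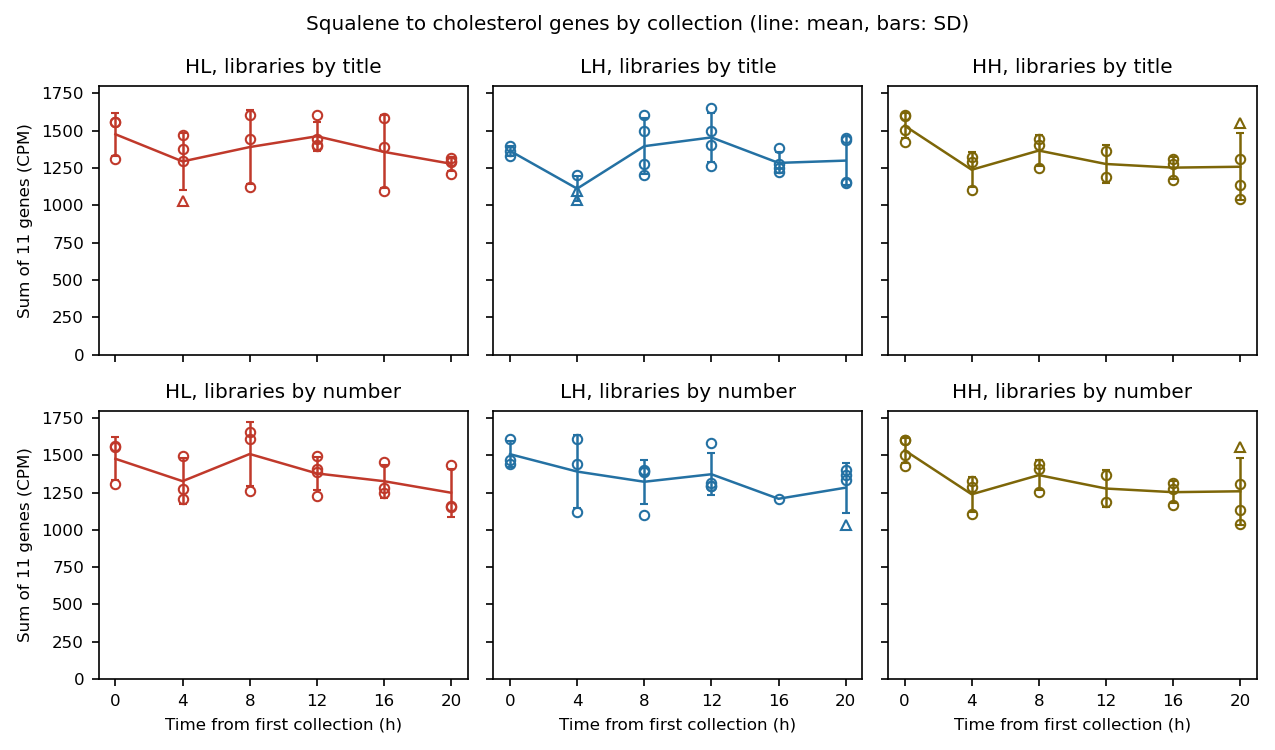
Summed level of the 11 squalene to cholesterol genes in CPM against hours after the first collection, by treatment and by both assignments, with circles for libraries, triangles for the 4 that stood apart, lines for means and bars for the SD. The HH sum is highest at the first collection (mean 1534 CPM), and the second LH collection by title is the lowest of LH, with 2 of its 3 libraries among those that stood apart.

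Within HH, the summed levels of the set were highest in the first collection. The summed squalene to cholesterol level was 1534 CPM ± 85.0 (SD, n = 4) there, with a lowest library of 1427 CPM, and the means of the later HH collections were 1239 to 1367 CPM. Only 2 later HH libraries reached 1427 CPM, one in the third collection (1445 CPM) and HH collection 6 replicate 3 (1552 CPM), which stood apart. Mitochondrial genes took 2.21% to 3.50% of counts in the 4 libraries of the first HH collection and 1.55% to 2.74% in the 15 later ones, and their part in the result was not tested. For 32 of the 34 genes the mean of the first HH collection exceeded that of the others, with a median log2 difference of 0.20, while 52.6% of all genes did, with a median of 0.02. For 21 of the 34 the first collection was the highest of the 6, as it was for 19.9% of all genes. Without the 4 libraries that stood apart the count was again 32, with a median of 0.25.

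Hmgcs1 had 269.2, 251.1, 278.7 and 245.1 CPM in the first HH collection and 126.7 to 264.4 CPM in the later ones. Msmo1 had 403, 419, 391 and 412 CPM there and at most 380 CPM later outside HH collection 6 replicate 3, which had 533 CPM. The first collection was also high in HL, for 28 of the 34 genes by title (median log2 0.14, 53.8% of all genes) and 24 by number (0.15, 47.1% of all genes). In LH it was high for 23 by title (0.08, with 47.0% of all genes) and 27 by number (0.18, with 58.4% of all genes). Without the libraries that stood apart, the counts by title were 27 in HL (0.11, with 51.7% of all genes) and 19 in LH (0.05, with 44.7% of all genes). By number they were then 24 in HL (0.15, with 47.1%) and 27 in LH (0.14, with 57.2%). This pattern was seen in the data and has no test.

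The genes varied together from library to library. After each gene was centred on the mean of its treatment and collection on the log2(CPM + 0.5) scale, the 561 pairs of the set had a median Pearson r of 0.27 over all 62 libraries, with 81.1% of pairs positive. All pairs of the filtered genes with a mean of 10 CPM or more had a median of 0.07, with 58.4% positive. Without the 4 libraries that stood apart the medians were 0.29 (86.8% positive) and 0.06 (58.2%) over 58 libraries, and by number 0.32 and 0.07 over 57 libraries. These are descriptions, since the pairs share their libraries and their depth.

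Pairs within the sterol route had the higher values. Over the 58 libraries, pairs within the squalene to cholesterol genes had a median r of 0.39, pairs within the mevalonate pathway 0.32, pairs within the fatty acid genes 0.28 and pairs within the regulators 0.19. Over all 62 libraries the order of the first 2 turned, with 0.38 within the squalene to cholesterol genes and 0.44 within the mevalonate pathway. Over the 58 libraries the highest pair was Acat2 with Msmo1 (0.84), the first and a late step of the sterol route, but this pair had 0.64 over all 62 libraries and 0.55 by number. The highest pair was Fdps with Scd1 (0.81) over all 62 libraries and Mvk with Sqle (0.91) by number. In the 58 libraries, Mvk with Sqle (0.83), Acat2 with Stard4 (0.77), Acat2 with Acly (0.77), Mvd with Fasn (0.76) and Pmvk with Mvd (0.76) followed. The 3 most negative pairs over these 58 libraries held Insig2, with Pmvk (-0.43), Elovl6 (-0.42) and Fdps (-0.41). Over all 62 libraries the most negative was Fdps with Acss2 (-0.43), a pair with -0.17 over the 58. The 62 include the library of 104912 counts, in which Acss2 had 0 counts, so values over all 62 depend on it. Against the mean of the squalene to cholesterol genes, Acat2 had an r of 0.89 although it is a mevalonate gene, whereas Mvd had 0.18 and Insig2 0.14. Hsd17b7 (0.81), Nsdhl (0.78) and Msmo1 (0.84) were close to the mean they belong to, and Ebp (0.33) and Sc5d (0.38) were not. Being part of that mean raises the r of these genes, so their values cannot be set beside those of Acat2, Mvd and Insig2.

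**Figure D4:**
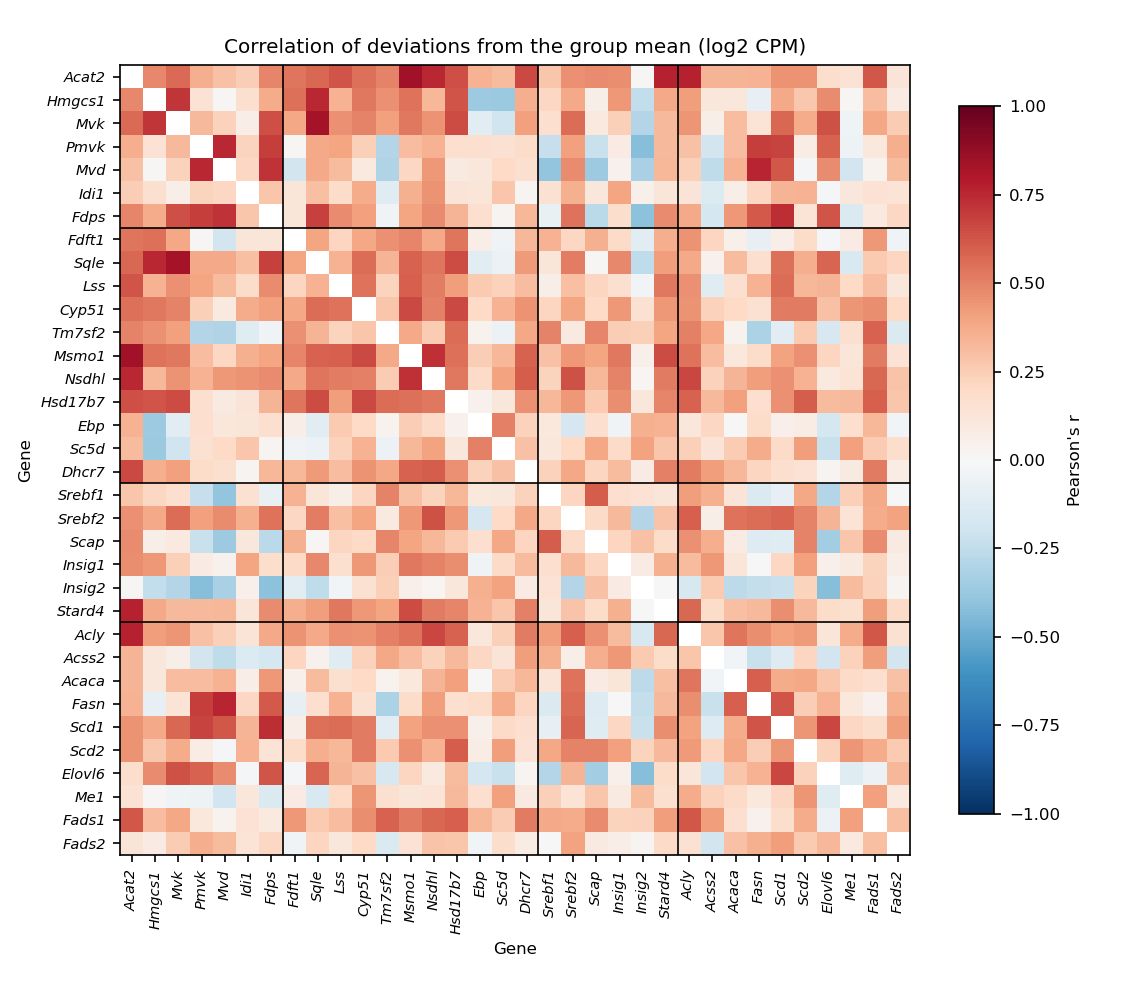
Pearson r of the centred log2(CPM + 0.5) of each pair of the 34 genes over the 58 libraries that did not stand apart, ordered by role. Most pairs of the squalene to cholesterol genes with Acat2 are positive, up to 0.84, while a few such as Sqle with Ebp (-0.12) are not, and Insig2 has its lowest values with Pmvk and Elovl6.

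Outside the set, the gene whose course over libraries was most like the squalene to cholesterol mean was Erg28, a membrane protein of the sterol C4-demethylation complex in which Msmo1 and Nsdhl act. Among 7750 genes with a mean of 10 CPM or more it had a Pearson r of 0.83 (Spearman rho 0.81) over 62 libraries, 0.79 without the 2 libraries farthest from the median, 0.84 without the 4 that stood apart and 0.92 by number, and it ranked first in each of 5 sets of libraries. The next were Impad1 (0.78), Aacs, a cytosolic ligase that feeds acetoacetate into lipid synthesis (0.77), Vamp4 (0.76), Tuba1a (0.75), Rab34 (0.75), Lsm8 (0.74), Sri (0.74), Coprs (0.74) and Cdc42se2 (0.74). This list was less steady than Erg28 itself. Of its 10 genes, 3 were among the first 10 without the 4 libraries and 5 by number.

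**Figure D5:**
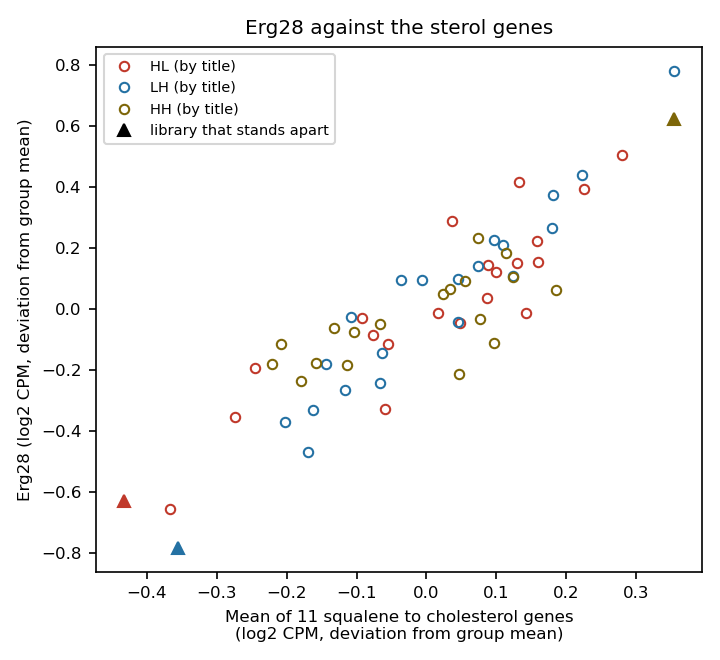
Centred log2(CPM + 0.5) of Erg28 against the mean of the 11 squalene to cholesterol genes in the 61 libraries of more than 1000000 counts, 1 point per library, coloured by treatment, with triangles for libraries that stood apart. Erg28 is higher where the mean is higher in all 3 treatments (r 0.90).

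The same mean moved with properties of the libraries. Over the 61 libraries its Pearson r was 0.54 (Spearman rho 0.47) with the percent of counts from mitochondrial genes, which ran from 1.29% to 3.60%, -0.30 (rho -0.31) with the log2 library total and 0.25 (rho 0.19) with the mean of 17 proliferation genes. Their part in the shared variation was not tested.

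Genes next to these pathways were read from 4 lists. Of 18 genes tested for sterol uptake, efflux and SREBP processing and 12 of the isoprenoid branches, edgeR called 0 in any comparison of levels, collections or interaction in either assignment. By number, JTK_CYCLE called Gpr146 and Dhdds in HL (1.82% of all genes) and Fntb in LH (2.14%). Of 21 genes tested for fatty acid activation, elongation and glycerolipid synthesis, 2 were called in levels, Tecr and Agpat1, both lower in HH than in HL (1.2% of all genes called) and higher in LH than in HH (0.91%), and the same 2 by number (0.568% and 1.63%). Tecr, the reductase that ends each round of fatty acid elongation, differed on the log2 scale by -0.23 (SE 0.07) in HH against HL and 0.18 (SE 0.06) in LH against HH by title, and by -0.17 and 0.23 by number. Agpat1, which acylates lysophosphatidic acid, differed by -0.22 (SE 0.06) and 0.12 (SE 0.06) by title, and by -0.12 and 0.19 by number. Neither passed Benjamini-Hochberg adjustment, with an adjusted edgeR p of 0.350 for Tecr and 0.349 for Agpat1 in HH against HL by title.

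In the same list, Acsl4 and Mid1ip1 changed between LH collections by title (2.93% of all genes) and Tecr by number (1.05%), and Lpin2 and Aacs were called by JTK_CYCLE in HL by number (1.82%). Of 16 fatty acid oxidation genes, edgeR called 0, and JTK_CYCLE called 2 in HH in both assignments (1.99% of all genes by title), Acadm (exact p 0.0009) and Hadha (0.0029), which act in mitochondrial beta-oxidation. Of the 17 proliferation genes, edgeR called 0 between collections by title and JTK_CYCLE called Top2a and Pcna in HH (1.99% of all genes). By number, edgeR called 3 of them in HL (Mki67, Top2a and Birc5, with 0.394% of all genes), 3 in LH (Top2a, Mcm2 and Mcm5, with 1.05%) and 2 in HH (Top2a and Mcm5, with 0.803%).

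Some genes of the set overlap others at the 3′ end on the opposite strand: Mvd (Gm20388), Fdft1 (Ctsb), Lss (4930483K19Rik), Cyp51 (Akap9), Srebf1 (Rai1) and Acss2 (Gss). Whether the counting used strand is not given in the sources used here, so their counts may include reads of these partners.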

How the data were processed

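Libraries (62) of Per2::Luc mouse fibroblasts were sequenced single-end by 3′DGE. Per the labels' processing notes, bcl2fastq, STAR 2.6.0a, HTSeq 0.9.1 and mm10 were used, and the authors deposited unnormalized counts of reads per gene, 1 set for each of 121 sequencing runs. Counting by 3′ ends cannot separate genes with near-identical ends, and its use of strand is not given in the sources used here. Reads on no feature (18.4% to 29.1% of a run) were left out. Runs of a library were summed, since between runs of a library chi-square divided by its degrees of freedom was at most 2.09, and between libraries at least 2.92.

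Genes were matched to symbols of GENCODE M21 (31011 of 31053). Those with 1 CPM in 3 libraries were tested, all in 1 fit, with edgeR 4.0.16 (quasi-likelihood, TMM), Benjamini-Hochberg adjustment over all genes, and DESeq2 1.42.0 as an alternative. Levels were fitted on treatment and collection, and time courses on treatment by collection means. JTK_CYCLE used CPM, an exact null distribution, a period of 24 h and phases in steps of 2 h. Its p was Bonferroni-corrected over the phases and not over genes. Time came from the collection number in the titles, with which the clock hour in the labels conflicts. All tests were two-sided. Scripts were tested on simulated data.

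The members, the lists of other genes and the tests were chosen with earlier results of these data known. Values by library are given for called genes and for those with the highest level, the widest range or the smallest p, not all of which are printed in full, and like genes are the 10 of highest Pearson r with the squalene to cholesterol mean. Lists read were 4 of neighbouring pathways, 1 of proliferation and 7 of cell type markers. Promoters came from RefSeq (GRCm38.p6). Alternatives were library numbers, each run alone, other filters and scaling, a replicate block, adjustment, a cosinor and leaving out replicates. Leaving out the libraries that stood apart or LH collection 2 replicate 1, and another JTK_CYCLE null, were chosen after seeing the data.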

Additional observations from a re-analysis of the deposited data

Results flagged for a closer look

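Values were compared within each of 243 groups of 4 libraries of 1 treatment and collection (27 items, the genes chosen for their values by library and the role sums), and in 14 of them (5.76%) the highest or lowest library lay far from the other 3 by Dixon's ratio. Chance flags about 1 in 20 such groups, and no explanation was tested.

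In HL collection 2, replicate 3, one of the libraries that stood apart, was low for Acaca (19.5 CPM, the other 3 at 58.6 to 62.6 CPM), Insig1 (36.7 CPM) and Msmo1 (312 CPM). In LH collection 4, replicate 4 was high for Fdps (285.1 CPM), Fads2 (8.27 CPM) and the summed mevalonate genes (1229 CPM), and replicate 2 was high for Tm7sf2 (31.6 CPM) and low for Fasn (240.2 CPM). The others were single genes. Srebf2 was high in LH collection 3 replicate 4 (214 CPM), Tm7sf2 in HL collection 4 replicate 1 (20.6 CPM), Ebp in HL collection 6 replicate 3 (156 CPM), Sqle in HH collection 6 replicate 1 (155 CPM) and Mvk in HH collection 1 replicate 3 (119 CPM), and Fads1 was low in HL collection 6 replicate 4 (43.6 CPM).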

How the results depend on the processing

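By library number in place of title, the called genes became 0 for LH against HL, 0 for HH against HL, 0 between LH collections, 1 rhythmic in HL (Acaca) and 2 in LH (Fdft1 and Fads2), and the difference of LH from HL turned to 0.12 for Pmvk and 0.13 for Ebp. Both level comparisons went from 2 genes to 0 with the second sequencing run alone and after adjustment, and to 1 (Ebp) without the library under 1000000 counts, at 10 CPM in 3 libraries, with RLE scaling and without LH collection 2 replicate 1. For LH against HH, leaving out the 4 libraries that stood apart called 1 gene, Nsdhl. Between LH collections, 3 genes became 6 with the second run alone and 0 without LH collection 2 replicate 1. Without the 4 libraries, replicate 4 alone is left in LH collection 2, so that count is not given. Rhythmic genes in HL went from 2 to 0 with the second run alone and after adjustment, and to 1 with the first run alone, at 10 CPM in 3 libraries, without the 4 libraries, with TMM-scaled CPM, with a null over the 6 collections and with the edgeR cosinor. In LH adjustment left 0, and in HH 1 gene, Fdft1, was called with the second run alone or without the 4 libraries. Leaving out 1 replicate number of a treatment at a time gave 0 to 2 genes for LH against HL and for HH against HL, 0 to 1 for LH against HH, 0 to 5 between LH collections, and 0 to 2, 0 to 1 and 0 to 1 rhythmic genes in HL, LH and HH. It gave 0 to 0 between HL and HH collections and for the interaction. The share of all genes called is given above for the library numbers and for DESeq2, and not for the other alternatives. Their counts of the set therefore cannot be judged against all genes. The causes were not tested.

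Replicate numbers did not pair the libraries, since deviations of same-numbered libraries had a median r of -0.0036 over 53 pairs, 8 of them above 0.1, and those of other pairs 0.0038 over 159. With the replicate block, counts were 2, 2 and 0 for levels, 0, 3 and 0 between collections, 0 for the interaction, and 1 rhythmic gene in HL, 1 in LH and 0 in HH. The interaction and the counts between HL and HH collections stayed at 0 under all alternatives run. At the depth of LH collection 2 replicate 2, a count of 0 allows a level of up to 28.6 CPM.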
